A study of Mus musculus with 16 samples.

Results

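The genes of cholesterol synthesis, uptake and export were followed in crypt-enriched small intestinal epithelium of reporter mice, in which secretory cells had been sorted apart from other epithelial cells. The 29 genes were chosen by symbol among the 45513 genes of the count tables. They comprised 18 genes of the synthesis pathway, 5 regulators, the sterol carrier gene Stard4, and 5 genes of absorption, esterification and efflux. To define a secretory signature, the study sorted live EpCAM+ cells of the small intestine into a tdTom+ and a tdTom- fraction, with 1 library of each from each of 8 mice (16 libraries). EpCAM marks epithelial cells at their surface. Per the methods the cells came from the proximal small intestine, with the first, villus-enriched fraction discarded and the crypt-enriched ones pooled. The tdTom- fraction thus did not sample the whole of the remaining epithelium. All mice carried Atoh1(WT)CreERT2, which places a tamoxifen-inducible Cre recombinase after the coding sequence of Atoh1, the transcription factor gene of secretory precursors, and R26RtdTom, a Cre-dependent red reporter at Rosa26 that the methods give as tdTom/+. Per the labels they received tamoxifen on 3 days in a row at 1 mg a day, and the methods give C57BL/6 mice of both sexes aged 8 to 16 weeks. Both fractions thus came from the same treated animals, and no library without Cre or without tamoxifen was analysed here. The reporter stays on in the progeny of a cell that once expressed Atoh1, so tdTom+ marks a history of expression.

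Cells make cholesterol from acetyl-CoA through mevalonate, isoprenoid diphosphates, squalene and lanosterol. The genes of this route are switched on together by the transcription factor SREBP-2, which its escort SCAP carries out of the endoplasmic reticulum when sterols are low and which the INSIG proteins hold back when sterols are high. Absorptive enterocytes of the small intestine also take up cholesterol from the lumen through NPC1L1, esterify it with ACAT2 (gene Soat2) for chylomicrons, return plant sterols and excess cholesterol to the lumen through the ABCG5 and ABCG8 pair, and pass cholesterol to apolipoprotein A-I at the basolateral side through ABCA1. The gene called Acat2 is a different gene, the cytosolic acetoacetyl-CoA thiolase of synthesis. Sterols that activate LXR raise Abca1, Abcg5, Abcg8 and Srebf1.

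Total assigned counts were 17116405 to 25323567 per library, and the difference between fractions (475039 counts, tdTom+ minus tdTom-) did not exceed their spread (p = 0.713 by an exact permutation test, two-sided). The 10 most counted genes of a library took 22.9% to 31.2% of counts in tdTom+ and 9.23% to 24.1% in tdTom-. Levels are given as CPM, the counts scaled to a common library size with TMM factors, which allows comparison of a gene between libraries, and levels of different genes are compared only per kilobase of exon. A gene was called at an adjusted p under 0.01 by edgeR's quasi-likelihood test over all 15323 genes tested. The SE of each log2 fold change came from the same fit, which did not pair the libraries by mouse. Of the 15323 genes 49.6% were called, 22.7% higher and 27.0% lower in tdTom+. In 14.6% every tdTom+ library lay above every tdTom- library, and in 17.0% every one lay below. The median log2 fold change of all genes was 0.0087 (quartiles -0.42 and 0.34).

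The markers of the sorted cells separated the fractions. Summed over 8 goblet genes the level was 128100 to 264200 CPM in tdTom+ and 951.8 to 1511 CPM in tdTom-, and all 8 rose. For 8 Paneth genes it was 52680 to 139500 against 405.4 to 595.1 CPM, again with all 8 higher. All 8 absorptive genes were lower in tdTom+, at 1794 to 6131 against 13690 to 36720 CPM in sum, with a median log2 fold change of -2.76. Enteroendocrine genes were higher in 8 of 8, tuft genes in 6 of 7 tested and stem genes in 3 of 8 (7 of 7 and 4 of 8 with the mouse as a block). Beside the marker counts of this paragraph, 22.7% of all genes tested were higher and 27.0% lower. Of 8 proliferation genes 0 were called by edgeR with or without a block for the mouse, by DESeq2 or by limma-voom (1 had an unadjusted p under 0.05 by edgeR, 1 by DESeq2 and 0 by limma-voom), with sums of 380.8 to 519.3 CPM in tdTom+ and 339.0 to 638.5 CPM in tdTom-. Immune genes were lower in 4 of 8 (6 of 8 with the block), with sums of 5.96 to 28.9 against 10.6 to 148 CPM. Of 8 stromal genes 3 were tested and 1 was higher, with sums of 18.6 to 45.8 against 4.12 to 8.40 CPM, and Col3a1 and Dcn had no count in any tdTom+ library. The goblet, Paneth, absorptive and enteroendocrine markers, all of them called, move with every contrast given here. The part of the markers in the results on cholesterol genes was not tested. In bulk fractions, fewer cells of a type and less RNA per cell cannot be told apart.

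The tdTom- library of mouse 7 stood apart from the other tdTom- libraries. It held the lowest absorptive marker sum (13690 CPM, the others 23920 to 36720 CPM), the highest stem sum (2894 CPM, the others 1157 to 1817 CPM) and the highest proliferation sum (638.5 CPM, the others 339.0 to 479.0 CPM). Among tdTom- libraries it was the highest in 14 of 18 synthesis genes and the lowest in 5 of 5 absorption, esterification and efflux genes. Without mouse 7, 13 synthesis genes were again called higher and 2 lower, 3 regulators higher and 1 lower, and all 5 absorption, esterification and efflux genes lower. Values without this mouse are given beside several of the results.

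Of the 29 genes, all of which were tested, 16 were called higher in tdTom+, 9 lower, and 4 were not called (Acat2, Tm7sf2, Hsd17b7 and Insig2). In synthesis 13 of 18 genes rose and 2 fell, with a median log2 fold change of 0.75. All 5 genes of absorption, esterification and efflux fell, with a median of -2.14. Beside the 22.7% of all genes that rose and the 27.0% that fell, these are descriptive counts over a chosen list. In 8 of 18 synthesis genes every tdTom+ library lay above every tdTom- library, and in 1 every one lay below. In 5 of 5 absorption, esterification and efflux genes every tdTom+ library lay below. Over all genes tested these shares were 14.6% above and 17.0% below.

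**Figure D1:**
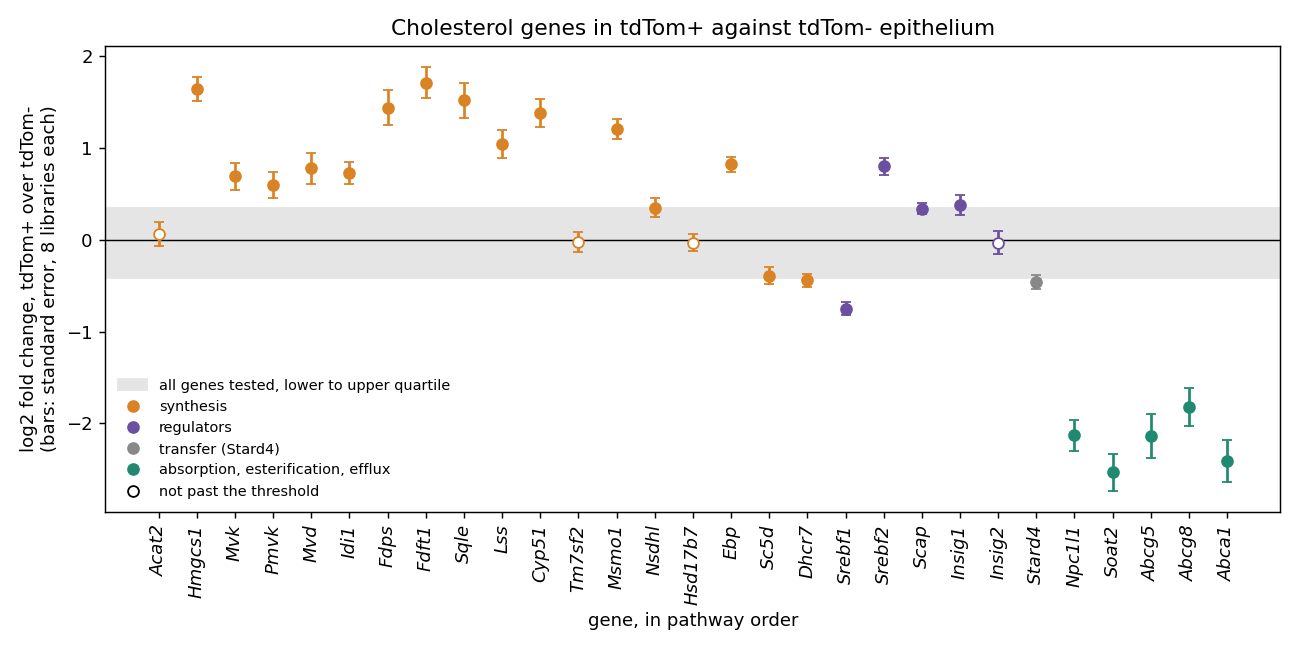
Log2 fold change (tdTom+ over tdTom-) of each of the 29 genes in pathway order, with bars for the standard error from edgeR over 8 libraries a fraction, open symbols for genes that were not called, and a grey band from the lower to the upper quartile of all genes tested. Synthesis genes run from -0.44 (Dhcr7) to 1.71 (Fdft1), and the 5 absorption, esterification and efflux genes lie between -2.53 and -1.82.

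In the mevalonate steps the largest rise was that of Hmgcs1. Hmgcs1, which makes HMG-CoA, ranged from 316 to 515 CPM in tdTom+ (median 410.6 CPM) and from 104 to 172 CPM in tdTom- (median 129 CPM). The fractions did not overlap, and all 8 mice had more Hmgcs1 in tdTom+. Its level was 3.12-fold higher (log2 fold change 1.64, SE 0.13, edgeR adjusted p = 2.5e-09). Per kilobase of exon it was the highest of the 29 genes in tdTom+ (125 ± 23.6 CPM per kilobase, SD, n = 8) and the fifth in tdTom- (40.1 ± 7.07).

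The promoter of Hmgcs1 is printed because it was the sole promoter of the matched genes with the sterol regulatory element that was searched for. The bases are the 250 before the RefSeq start (GRCm38.p6, chr13:119690101-119690350, plus strand), shown with the 250 bases before the start of Mvk (chr5:114444019-114444268, plus strand), which carried the most CCAAT letters. Capitals mark the sterol regulatory element TCACNCCAC and CCAAT, the letters bound by NF-Y, on either strand.
Hmgcs1: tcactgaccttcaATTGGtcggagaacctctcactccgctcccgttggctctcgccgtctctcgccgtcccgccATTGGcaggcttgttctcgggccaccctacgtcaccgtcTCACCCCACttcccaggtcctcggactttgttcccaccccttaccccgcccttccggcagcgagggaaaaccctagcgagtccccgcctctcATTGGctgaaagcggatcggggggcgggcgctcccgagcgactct
Mvk: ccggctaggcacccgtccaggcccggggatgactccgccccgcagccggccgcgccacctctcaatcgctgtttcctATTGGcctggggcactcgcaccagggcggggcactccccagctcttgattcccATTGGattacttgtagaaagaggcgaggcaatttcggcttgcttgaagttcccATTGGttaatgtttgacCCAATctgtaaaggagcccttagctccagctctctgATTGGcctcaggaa
In these runs Hmgcs1 held 1 sterol regulatory element and 3 CCAAT, and Mvk held 5 CCAAT. RefSeq promoter windows of 300 bases, from 250 before to 50 after the start, were found for 24 of the 29 genes (33 windows). There were none in the table for Fdps, Fdft1, Sqle, Soat2 and Stard4. TCACNCCAC was in 1 of the 24 genes, and in 1.24% of all 32851 promoters. CCAAT was in 21 of 24 genes (22 of 33 windows) and in 37.4% of all promoters, and GGGCGG, the letters of an Sp1 site, in 20 of 24 genes (24 of 33 windows) and in 35.7%. By role, CCAAT was found in 14 of 15 synthesis genes, 4 of 5 regulators and 3 of 4 genes of absorption, esterification and efflux, and GGGCGG in 14 of 15, 5 of 5 and 1 of 4. A gene with several starts had several chances of a match. These are matches of letters and not measured binding, and each motif was searched on both strands.

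Downstream of Hmgcs1, the kinases of mevalonate and the decarboxylase rose less. Mvk, mevalonate kinase, was at 17.2 to 22.9 CPM in tdTom+ (median 20.4 CPM) and 9.20 to 21.3 CPM in tdTom- (median 10.8 CPM), and it rose by 0.69 on the log2 scale (SE 0.15, edgeR adjusted p = 0.000757). Pmvk, phosphomevalonate kinase, was at 20.5 to 29.3 (median 23.2) against 11.6 to 26.8 CPM (median 13.3), and Mvd, the decarboxylase that yields isopentenyl diphosphate, at 21.1 to 30.8 (median 24.3) against 9.92 to 26.1 CPM (median 12.6). Their log2 fold changes were 0.60 (SE 0.14) and 0.78 (SE 0.17), with edgeR adjusted p of 0.00135 and 0.000613. In these 3 genes the fractions overlapped, and the highest tdTom- value was that of mouse 7 each time. Without mouse 7 the log2 fold changes were 0.82, 0.76 and 0.92. Acat2, the thiolase that joins acetyl-CoA units, was at 16.1 to 26.3 CPM in tdTom+ and 15.97 to 30.6 CPM in tdTom-. It was not called (log2 fold change 0.06, SE 0.13, 95% interval -0.20 to 0.32), and its value is uncertain because 39.1% of its 50-base words also occur in other genes, most in Acat3.

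All 3 genes of the isoprenoid and squalene steps rose. Idi1, isopentenyl diphosphate isomerase, was at 81.4 to 105 CPM in tdTom+ (median 97.7 CPM) and 45.0 to 90.3 CPM in tdTom- (median 54.6 CPM), where the top value was again mouse 7. The fractions overlapped through that library alone, since the other tdTom- libraries reached 61.8 CPM, and Idi1 rose by 0.73 (SE 0.12, edgeR adjusted p = 2.73e-05). Fdft1, squalene synthase, was at 74.0 to 112 CPM (median 97.3) against 20.6 to 51.5 CPM (median 25.8), with no overlap and a 3.26-fold rise (log2 fold change 1.71, SE 0.17, edgeR adjusted p = 4.68e-08). Fdps, farnesyl diphosphate synthase, was low at 9.78 to 13.3 CPM (median 11.3) against 2.21 to 7.71 CPM (median 4.30), without overlap, and its log2 fold change was 1.44 (SE 0.19, edgeR adjusted p = 2.68e-06). The highest of the tdTom- libraries was mouse 7 in all 3 genes, and without that mouse the log2 fold changes were 0.84 (Idi1), 1.88 (Fdft1) and 1.63 (Fdps).

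The levels of these 3 genes are uncertain for a reason of counting. In Fdps 26.2% of 50-base words recur in other genes, and 26.7% of its exon bases overlap the same-strand model Gm43738, which had no count in any library. The 5 genes that share 50 or more words with Fdps summed to 24.9 CPM in tdTom+ and 10.04 CPM in tdTom-, more than Fdps itself and higher in the same fraction. For Idi1 17.7% of words are shared, most with the pseudogene Gm13502, and the 2 genes that share 50 or more summed to 13.2 against 9.58 CPM. For Fdft1 9.38% are shared, with Gm6781 at 5.04 against 1.48 CPM. The exons of Fdft1 also overlap those of Ctsb, but on the opposite strand, which counting by strand keeps apart.

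Both steps from squalene to lanosterol rose. Sqle, squalene epoxidase, a rate-controlling enzyme of the pathway, was at 88.1 to 130.3 CPM in tdTom+ (median 110.0 CPM) and 25.4 to 69.8 CPM in tdTom- (median 32.5 CPM). The fractions did not overlap, and Sqle was 2.87-fold higher (log2 fold change 1.52, SE 0.19, edgeR adjusted p = 1.59e-06, and 1.72 without mouse 7). Lss, lanosterol synthase, was at 37.2 to 50.6 CPM (median 45.6) against 15.02 to 35.2 CPM (median 19.5), again without overlap, with a log2 fold change of 1.04 (SE 0.15, edgeR adjusted p = 5.99e-06). Counted over the whole route to lanosterol, 9 of 10 genes rose, Acat2 being the exception, and the median log2 fold change was 0.91.

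From lanosterol to cholesterol the genes went in different directions. Of 8 genes 4 rose, 2 fell and 2 were not called, where 22.7% of all genes rose and 27.0% fell. The median log2 fold change of the 8 was 0.16. Cyp51, the lanosterol demethylase that starts this stretch, was at 107 to 153 CPM in tdTom+ (median 134) and 35.0 to 76.8 CPM in tdTom- (median 47.5), with a log2 fold change of 1.38 (SE 0.15, edgeR adjusted p = 2.06e-07). Msmo1, the sterol C4 methyl oxidase, was at 94.8 to 145 (median 124) against 43.4 to 67.3 CPM (median 51.8), and its log2 fold change was 1.21 (SE 0.11, edgeR adjusted p = 1.97e-08). Ebp, the sterol isomerase, was at 87.2 to 118 (median 100.3) against 49.3 to 68.7 CPM (median 56.4), with a log2 fold change of 0.82 (SE 0.08, edgeR adjusted p = 5.57e-08). In these 3 genes the fractions did not overlap. Nsdhl, a dehydrogenase of C4 demethylation, rose by 0.35 (SE 0.10, edgeR adjusted p = 0.00466) with overlapping fractions, at 29.5 to 40.4 CPM (median 33.9) against 21.1 to 32.7 CPM (median 26.2), and 7 of 8 mice had more in tdTom+. This call was lost without mouse 6 (adjusted p = 0.019), without mouse 8 (adjusted p = 0.0114) and with total counts in place of TMM (adjusted p = 0.0198), all by edgeR. With the mouse as a block the edgeR adjusted p of Nsdhl was 0.000535.

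The last enzymes of the route fell. Dhcr7, the reductase that turns 7-dehydrocholesterol into cholesterol, was at 34.1 to 48.6 CPM in tdTom+ (median 41.2 CPM) and 51.2 to 61.4 CPM in tdTom- (median 54.7 CPM). The fractions did not overlap, all 8 mice had less in tdTom+, and the log2 fold change was -0.44 (SE 0.07, edgeR adjusted p = 2.99e-05). Sc5d, the desaturase of the step before it, was at 55.6 to 72.3 CPM (median 67.5) against 64.5 to 99.5 CPM (median 84.0), lower in all 8 mice although the fractions overlapped, with a log2 fold change of -0.39 (SE 0.09, edgeR adjusted p = 0.000882). The Sc5d call was lost without mouse 3 (log2 fold change -0.30, edgeR adjusted p = 0.0161) and among genes with at least 10 counts in every library (-0.27, edgeR adjusted p = 0.0124). Each of these 2 settings also raised the median of all genes, to 0.115 and 0.116. With the mouse as a block the edgeR adjusted p of Sc5d was 0.000182. Tm7sf2, a sterol C14 reductase, and Hsd17b7, a ketosteroid reductase of C4 demethylation, were not called. Tm7sf2 was at 11.1 to 17.6 against 12.1 to 19.0 CPM (log2 fold change -0.02, 95% interval -0.23 to 0.19) and Hsd17b7 at 17.8 to 24.4 against 18.6 to 27.1 CPM (-0.03, 95% interval -0.22 to 0.15). Of the exon bases of Tm7sf2, 15.3% overlap Vps51 on the same strand, where reads cannot be given to either gene, so its level is uncertain.

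The regulators did not move together. Srebf2, the gene of SREBP-2, was at 171 to 210.0 CPM in tdTom+ (median 199.6 CPM) and 93.4 to 149.9 CPM in tdTom- (median 105 CPM). The fractions did not overlap, with a 1.74-fold rise (log2 fold change 0.80, SE 0.09, edgeR adjusted p = 5.44e-07). Srebf1, the gene of the SREBP-1 proteins that favour fatty acid synthesis, was at 88.3 to 97.3 CPM in tdTom+ (median 91.1) and 116 to 181 CPM in tdTom- (median 157), and fell without overlap (log2 fold change -0.75, SE 0.07, edgeR adjusted p = 4.65e-08). Counts per gene do not separate the SREBP-1a and SREBP-1c transcripts. Mouse 7 had the highest Srebf2 and the lowest Srebf1 of the tdTom- libraries.

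Per kilobase of exon, the ratio of Srebf2 to Srebf1 was 2.095 to 2.69 in tdTom+ libraries (median 2.42) and 0.618 to 1.47 in tdTom- libraries (median 0.760). Srebf2 was the higher of the pair in 8 of 8 tdTom+ libraries, and Srebf1 in 7 of 8 tdTom- libraries, the exception being mouse 7 at 1.47. Without it the tdTom- ratios reached 0.960. The coefficient of variation of Srebf1 was 2.98% in tdTom+ and 12.6% in tdTom-.

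Scap, the escort of SREBP, rose slightly and without overlap, at 57.0 to 64.2 CPM (median 59.0) against 42.3 to 54.6 CPM (median 46.6), with a log2 fold change of 0.34 (SE 0.06, edgeR adjusted p = 3.82e-05). Insig1, itself a target of SREBP-2 and a brake on it, was at 83.0 to 120.1 CPM (median 110.0) against 57.2 to 105 CPM (median 80.0 CPM). It was higher in tdTom+ in all 8 mice, with overlapping fractions and a log2 fold change of 0.38 (SE 0.11, edgeR adjusted p = 0.00528). That call was lost with total counts (edgeR adjusted p = 0.0124) and without mouse 2, 4, 5 or 8 (edgeR adjusted p = 0.0102 to 0.0206), while the log2 fold change stayed within 0.32 to 0.45 over these and the other omissions. With the mouse as a replicate block, which compares each mouse with itself, its adjusted p was 0.000126. Insig2, the second brake, was at 20.9 to 28.9 CPM (median 23.3) against 16.2 to 32.6 CPM (median 24.2) and was not called (log2 fold change -0.03, 95% interval -0.27 to 0.22). Stard4, which carries cholesterol between membranes inside the cell and is not an uptake gene, fell without overlap, at 126 to 170.1 CPM (median 155) against 172 to 244 CPM (median 209.5), with a log2 fold change of -0.46 (SE 0.08, edgeR adjusted p = 6.69e-05).

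**Figure D2:**
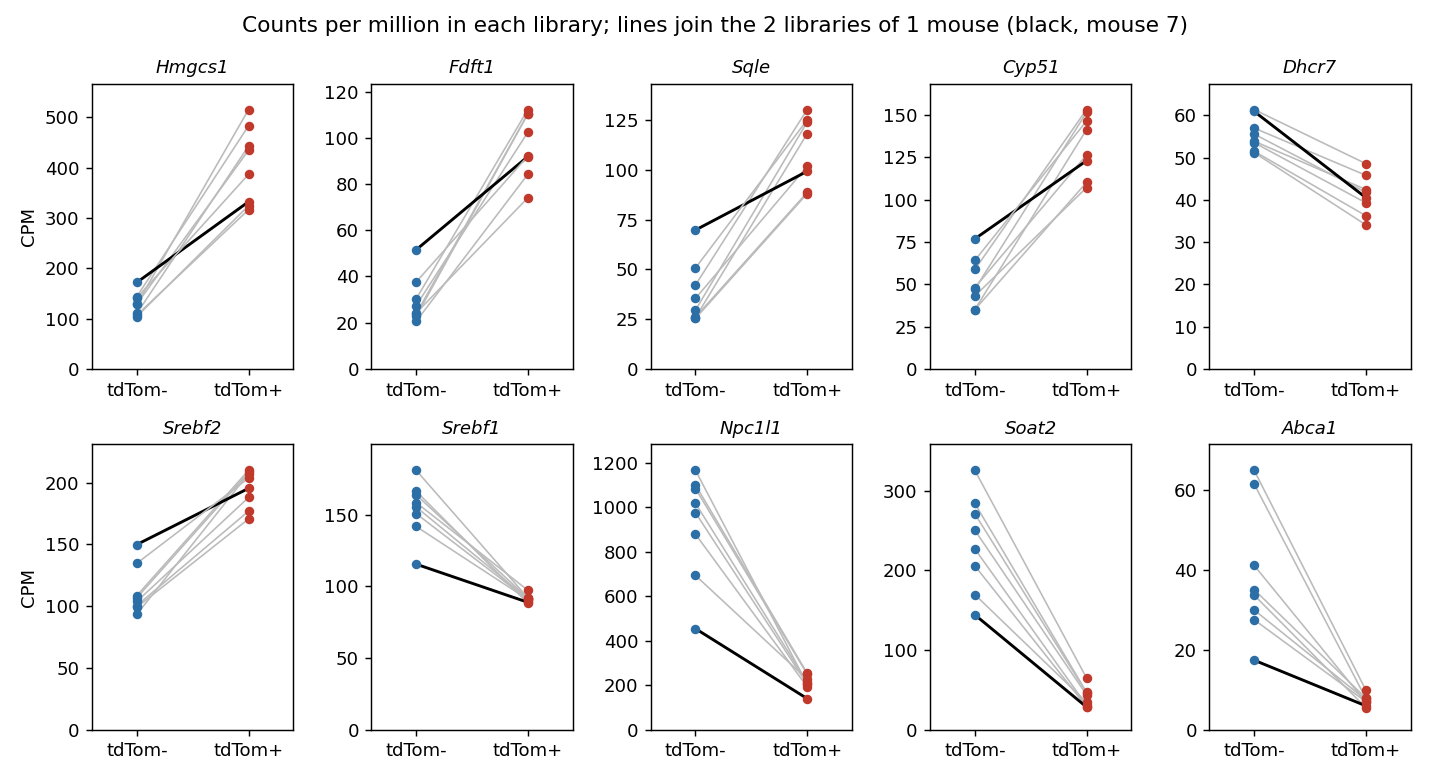
CPM of 10 of the genes in each of the 16 libraries, 1 panel a gene with its own axis from 0, with lines joining the tdTom- and tdTom+ library of a mouse and mouse 7 in black. In each of the 10 panels the lines of all 8 mice run in 1 direction, and mouse 7 starts closest to the tdTom+ values in 9 of them, the exception being Dhcr7.

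The genes of absorption, esterification and efflux fell 3.53-fold to 5.78-fold, and in each every tdTom+ library lay below every tdTom- library and all 8 mice had less in tdTom+. Npc1l1, the transporter that takes up luminal cholesterol, was at 139.5 to 253 CPM in tdTom+ (median 209 CPM) and 454 to 1165 CPM in tdTom- (median 996 CPM), a log2 fold change of -2.13 (SE 0.17, edgeR adjusted p = 4.07e-09). Soat2, the acyltransferase that esterifies absorbed cholesterol, was at 28.5 to 65.1 CPM (median 39.2) against 144 to 326 CPM (median 239), the largest change of the 29 genes (log2 fold change -2.53, SE 0.20, edgeR adjusted p = 2.35e-09). Leaving out mouse 7, which had the lowest tdTom- value in both, gave -2.16 and -2.55.

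Both sterol exporters of the luminal membrane fell. Abcg5 was at 46.9 to 116 CPM in tdTom+ (median 89.6) and 165 to 568 CPM in tdTom- (median 371), with a log2 fold change of -2.14 (SE 0.24, edgeR adjusted p = 3.08e-07). Its partner Abcg8 was at 44.4 to 96.9 (median 78.7) against 147 to 397 CPM (median 244), with a log2 fold change of -1.82 (SE 0.21, edgeR adjusted p = 5.41e-07). The proteins work as a heterodimer, and the genes lie head to head on mouse chromosome 17. Abca1, the basolateral exporter, was at 5.51 to 9.91 CPM (median 7.25) against 17.4 to 64.9 CPM (median 34.4), with a log2 fold change of -2.41 (SE 0.23, edgeR adjusted p = 3.22e-08). It had at least 99 counts in each library. In tdTom+ libraries mouse 7 was the lowest in 4 of these 5 genes and mouse 5 the highest in 4.

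A pair of upstream regions of this group are printed to set beside those of Hmgcs1 and Mvk, with the same capitals. The run for Npc1l1 is the 250 bases before its RefSeq start (GRCm38.p6, chr11:6230246-6230495, minus strand). The other is the whole stretch of 109 bases between the RefSeq start of Abcg5 and the nearer RefSeq start of Abcg8 (chr17:84683012-84683120, plus strand, so that Abcg8 is read from its right end).
Npc1l1: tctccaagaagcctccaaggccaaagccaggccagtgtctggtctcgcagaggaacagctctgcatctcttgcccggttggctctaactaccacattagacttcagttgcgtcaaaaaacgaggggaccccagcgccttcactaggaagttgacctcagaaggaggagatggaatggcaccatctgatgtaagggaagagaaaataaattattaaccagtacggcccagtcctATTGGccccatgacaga
Abcg5 to Abcg8: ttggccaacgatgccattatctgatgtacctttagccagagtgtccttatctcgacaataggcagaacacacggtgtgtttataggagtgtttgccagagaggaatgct
Npc1l1 held 1 CCAAT and no sterol regulatory element, and the stretch between Abcg5 and Abcg8 held neither. That stretch is shorter than the other runs printed. The 300-base windows of Abcg5 and of the nearer Abcg8 start reach beyond it and held 1 and 2 CCAAT. The CCAAT of Abcg5 lay at its start, just outside the stretch. CAAAGTCCA, the letters of an HNF4A site, was in none of the 24 genes and in 0.475% of all promoters.

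The order of levels differed between the fractions. Per kilobase of exon, the first 4 places in tdTom- were held by Npc1l1 (206 ± 53.7 CPM per kilobase, SD, n = 8), Abcg5 (144 ± 54.4), Soat2 (106 ± 27.3) and Abcg8 (71.0 ± 25.8), followed by Hmgcs1 at 40.1 ± 7.07. The spreads overlapped between neighbours all along this order, from Npc1l1 to Hmgcs1. In tdTom+ Hmgcs1 came first at 125 ± 23.6, followed by Npc1l1 at 47.1 ± 8.06, Ebp at 43.4 ± 4.97, Srebf2 at 39.1 ± 3.04 and Insig1 at 34.8 ± 4.09, and the spreads of these last 4 overlapped between neighbours. Npc1l1 was the second gene of the 29 in tdTom+. Fdft1 moved from place 15 in tdTom- to place 6 in tdTom+, Sqle from 22 to 13 and Soat2 from 3 to 15. Abca1 was among the lowest in both (place 29 in tdTom+, 27 in tdTom-), as was Fdps (28 and 29). The levels of Fdps and Fdft1 are uncertain through shared sequence, as given above, and so are their places.

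**Figure D3:**
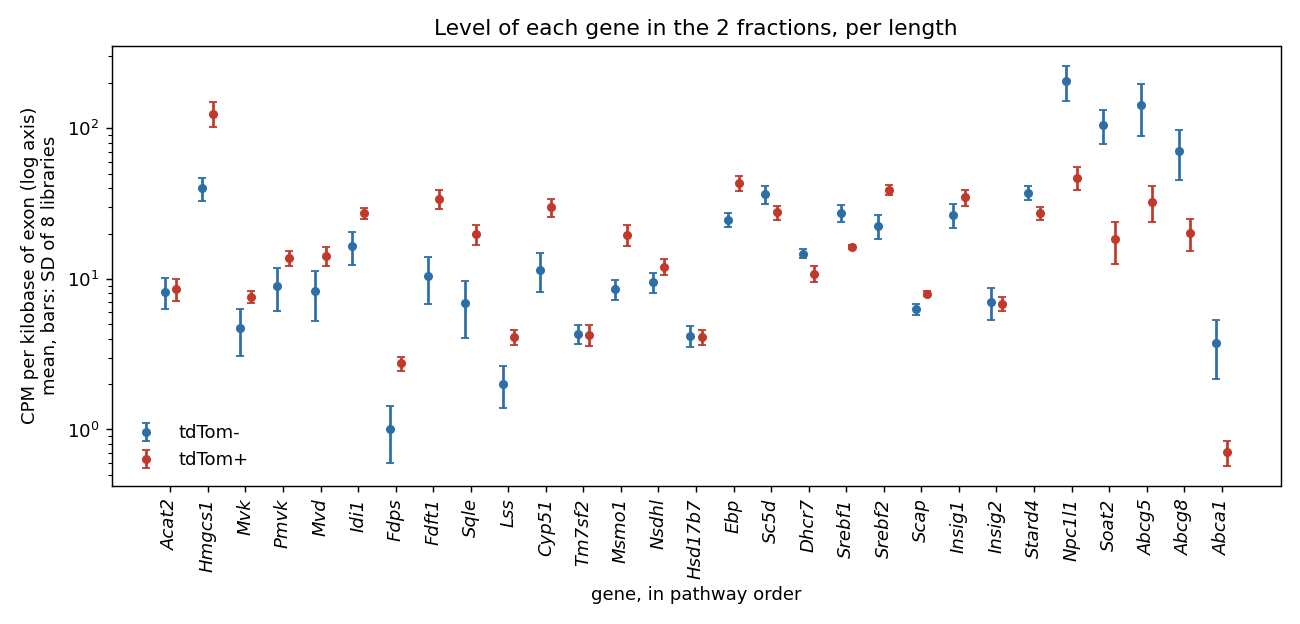
Mean level of each gene in CPM per kilobase of exon on a log axis, with bars for the SD over the 8 libraries of each fraction (tdTom+ red, tdTom- blue), genes in pathway order. Npc1l1 is highest in tdTom- at 206 and Hmgcs1 in tdTom+ at 125.

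Synthesis and absorption genes were then set side by side in each library. The 18 synthesis genes summed to 1134 to 1601 CPM in tdTom+ (median 1417) and 605.9 to 936.7 CPM in tdTom- (median 679.5). The 5 absorption, esterification and efflux genes summed to 265 to 538 CPM in tdTom+ (median 422) and 927 to 2450 CPM in tdTom- (median 1815). Neither sum overlapped between the fractions. The ratio of the synthesis sum to the other sum was 2.60 to 4.75 in tdTom+ libraries (median 3.07) and 0.252 to 1.01 in tdTom- libraries (median 0.357), where mouse 7 alone came above 0.552. Hmgcs1 and Npc1l1 carry a large part of these sums, so the mean log2 CPM, which weights genes equally, was taken too. It was 5.37 to 5.73 in tdTom+ and 4.60 to 5.34 in tdTom- for synthesis, and 5.11 to 6.15 against 6.94 to 8.45 for absorption, esterification and efflux. The closest approach of the fractions in synthesis was between mouse 4 in tdTom+ (5.37) and mouse 7 in tdTom- (5.34).

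**Figure D4:**
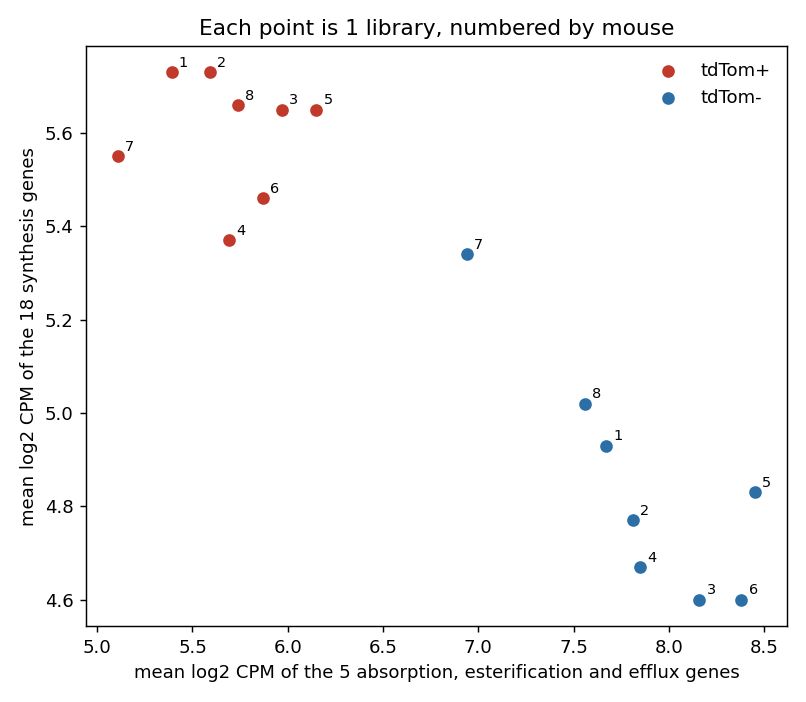
Mean log2 CPM of the 18 synthesis genes (vertical axis) against that of the 5 absorption, esterification and efflux genes (horizontal axis) in each of the 16 libraries, numbered by mouse, tdTom+ in red and tdTom- in blue. The 8 tdTom+ libraries lie at the upper left, from 5.11 to 6.15 on the horizontal axis, the tdTom- libraries at the lower right from 6.94, and the tdTom- library of mouse 7 is the closest to the tdTom+ libraries.

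The contrast was also taken within single mice. The median log2 ratio (tdTom+ over tdTom- of the same mouse) over the 18 synthesis genes was 0.63 to 1.11 in 7 mice and 0.14 in mouse 7, in which 11 of 18 genes were higher in tdTom+. In the other mice 13 to 16 of 18 were higher. Over the 5 absorption, esterification and efflux genes the median ratio was -2.51 to -1.72, and 5 of 5 were lower in every mouse. Of the synthesis genes, 11 were higher in tdTom+ in all 8 mice, and Sc5d and Dhcr7 were lower in all 8. Libraries of the tdTom- fraction varied more in several synthesis genes, with a coefficient of variation of 41.1% against 15.5% for Sqle and 40.8% against 10.4% for Fdps, although not in Hmgcs1 (17.7% against 18.8%) or Dhcr7 (7.03% against 11.5%).

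**Figure D5:**
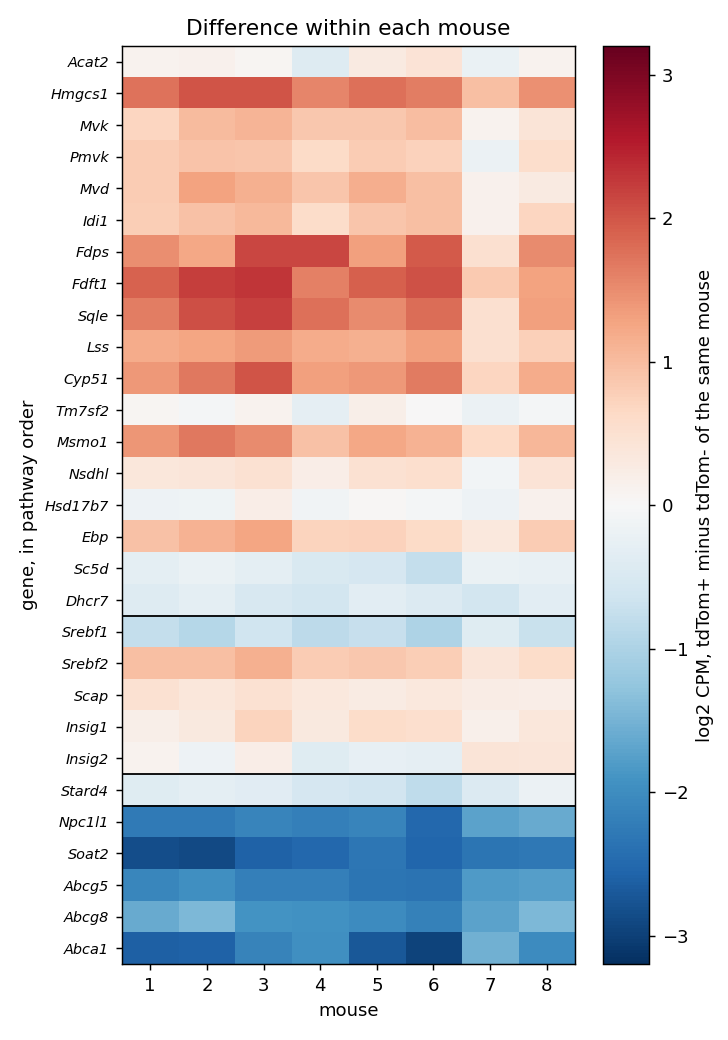
Log2 CPM of tdTom+ minus that of the tdTom- library of the same mouse, for the 29 genes in pathway order (rows) and the 8 mice (columns), red where tdTom+ was higher and blue where it was lower, with lines between synthesis, regulators, Stard4 and absorption, esterification and efflux. The last 5 genes are blue in all 8 mice, from -2.97 to -1.43, and the column of mouse 7 is paler among the synthesis genes.

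The rest of the sterol network was described from 39 other genes, of which 37 were tested. Of these 9 rose, 17 fell and 11 were not called, where 22.7% of all genes rose and 27.0% fell. In branches that draw isoprenoids from the pathway 1 of 8 genes was higher and 2 were lower, beside 22.7% and 27.0% of all genes. Dhdds, a subunit of the enzyme that builds dolichol for N-glycosylation, rose without overlap from 22.0 to 29.8 CPM in tdTom- to 31.0 to 40.0 CPM in tdTom+ (log2 fold change 0.56, SE 0.08, edgeR adjusted p = 3.69e-06). Pdss1 and Pdss2, which make the tail of coenzyme Q, fell (log2 fold change -0.87 and -0.49, SE 0.10 and 0.06, edgeR adjusted p = 3.15e-07 and 1.06e-06).

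Among 6 genes of SREBP cleavage and sterol-regulated degradation 1 rose and 4 fell, beside 22.7% and 27.0% of all genes. The rise was small, in the site-2 protease gene Mbtps2 (log2 fold change 0.28, SE 0.08, edgeR adjusted p = 0.00502). Mbtps1, the site-1 protease gene, fell by 0.20 on the log2 scale (SE 0.05, edgeR adjusted p = 0.00191), at 92.9 to 106.8 CPM in tdTom+ and 107.4 to 120.8 CPM in tdTom-. Erlin1, which binds SREBP complexes in the endoplasmic reticulum, and March6, a ligase that degrades Sqle protein, fell most, by 1.19 (SE 0.10, edgeR adjusted p = 9.33e-09) and 1.09 (SE 0.12, edgeR adjusted p = 2.89e-07) on the log2 scale. March6 was at 88.4 to 126.5 CPM in tdTom+ and 145 to 307 CPM in tdTom-.

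In endosomal and intracellular sterol handling 2 of 9 genes rose and 5 fell, beside 22.7% and 27.0% of all genes. Soat1, the second acyltransferase gene, went the opposite way to Soat2, at 65.0 to 87.3 CPM in tdTom+ (median 76.6) and 30.5 to 52.7 CPM in tdTom- (median 36.4) without overlap (log2 fold change 0.97, SE 0.11, edgeR adjusted p = 2.87e-07). Soat1 exceeded its tdTom- range in every tdTom+ library while Soat2 lay under its own in every one. Gramd1a, a sterol transporter between plasma membrane and endoplasmic reticulum, rose (1.79, SE 0.28, edgeR adjusted p = 1.63e-05), and its relative Gramd1c fell (-1.64, SE 0.15, edgeR adjusted p = 2.18e-08). Lipa, the lysosomal acid lipase, fell most (-2.48, SE 0.25, edgeR adjusted p = 8.01e-08), at 6.16 to 17.1 against 19.4 to 85.9 CPM.

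Of 8 genes of LXR and lipoprotein cholesterol 7 were tested, and Pltp was too low to test. Of the 7, 2 rose and 4 fell, beside 22.7% and 27.0% of all genes. Apoa1, the acceptor of cholesterol from ABCA1, was at 224 to 957 CPM in tdTom+ and 3575 to 7795 CPM in tdTom- (log2 fold change -3.48, SE 0.25, edgeR adjusted p = 1.06e-09). Nr1h3, the gene of LXR alpha, was at 8.62 to 19.3 against 35.0 to 62.8 CPM (-1.99, SE 0.14, edgeR adjusted p = 7.27e-10). Its usual target Abcg1, a cholesterol exporter of many tissues, went the other way to Abca1, at 3.23 to 7.90 CPM in tdTom+ (median 5.24) and 0.274 to 0.684 CPM in tdTom- (median 0.533), with a log2 fold change of 3.38 (SE 0.22, edgeR adjusted p = 2.2e-10). Mylip, a further LXR target and a ubiquitin ligase, was at 1.95 to 4.08 against 0.955 to 1.65 CPM and also rose (1.28, SE 0.17, edgeR adjusted p = 2.84e-06). Members of the LXR list moved in both directions between these fractions.

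Fatty acid synthesis genes, which SREBP-1 drives, were mixed as well, with 3 higher and 2 lower of 7 tested and Pnpla3 too low to test. Of all genes 22.7% were higher and 27.0% lower. Acly, which supplies cytosolic acetyl-CoA to both fatty acids and sterols, rose without overlap from 43.9 to 78.1 CPM in tdTom- to 139 to 195 CPM in tdTom+ (log2 fold change 1.63, SE 0.12, edgeR adjusted p = 1.74e-09). Fasn, fatty acid synthase, rose with overlap (0.85, SE 0.18, edgeR adjusted p = 0.000574), while Me1, the malic enzyme that supplies NADPH, and Elovl6, an elongase, fell (-1.99 and -0.89, SE 0.20 and 0.08, edgeR adjusted p = 8.44e-08 and 3.09e-08). Scd2, a desaturase, was at 64.0 to 155 CPM against 28.7 to 195 CPM and was not called, but was called higher when the mouse was a replicate block.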

How the data were processed

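RNA of 16 libraries of sorted small intestinal epithelium was analysed, 8 tdTom+ and 8 tdTom- by their group labels, with the mouse number from the titles. The authors aligned single-end reads to GRCm38 with TopHat2 (2.1.1 per the submitters' processing notes) and deposited raw counts per Ensembl gene, for which the file headers name featureCounts 1.5.0-p1 and the processing notes Subread 1.5.2. Counting used the reverse strand and primary alignments, so a read that maps to several copies of a gene counted at its primary place and a read in 2 genes at once counted for neither. For the secretory signature the methods give the same tamoxifen schedule as the labels. They also describe a single tamoxifen injection before RNA sequencing, and do not say which libraries that covered. The depth of 17116405 to 25323567 counts set the precision, and the least counted of the 29 genes had at least 44 counts in each library.

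Symbols were matched for 44585 of 45513 identifiers, and for all 140 listed genes. In R 4.3.3, genes passing filterByExpr of edgeR 4.0.16 (15323) were scaled with TMM and tested by the quasi-likelihood test without a block, as the study names none, with Benjamini-Hochberg adjustment over all of them and a threshold of 0.01. Intervals (95%) came from the standard error. The mouse number pairs the libraries, as both came from 1 animal. The printed SE, adjusted p and intervals do not use that pairing unless a block is named. Deviations from the fraction means correlated at a mean of 0.426 within mice (0.245 to 0.634) and -0.057 between them. Total counts were compared by an exact permutation test over 12870 assignments. The code was tested on simulated data.

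The members and lists were chosen with earlier results of these data known. From the other lists, the text names the called genes with the 2 highest and the 2 lowest signed log2 fold changes of a list. Scd2 was named after its values were seen, and a further gene is not reported here. Promoters came from RefSeq (GRCm38.p6), and shared sequence was measured as 50-base words of the exons. Alternatives were other scalings, DESeq2 1.42.0, limma 3.58.1 with voom, other filters, thinning, other thresholds, the block, and leaving out each mouse.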

Additional observations from a re-analysis of the deposited data

Results flagged for a closer look

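Of 58 sets of 8 values (29 genes in each fraction), 4 held a library whose gap to its nearest neighbour, as a share of the range of log2 CPM, passed Dixon's 95% critical value for 8 values, where chance would give 2.9. In tdTom- the library of mouse 7 was high in Pmvk, at 26.8 CPM with the others at 11.6 to 16.6 CPM (gap share 0.571), and in Idi1, at 90.3 CPM with the others at 45.0 to 61.8 CPM (0.544). In tdTom+ mouse 7 was low in Npc1l1, at 139.5 CPM with the others at 192 to 253 CPM (0.538). The fourth was Srebf1 in the tdTom+ library of mouse 8, at 97.3 CPM with the others at 88.3 to 92.0 CPM (0.578), a gap that is small in CPM because the other 7 libraries lay close together. Pmvk, Idi1 and Npc1l1 were called the same way with mouse 7 left out, and Srebf1 with mouse 8 left out (log2 fold change -0.76).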

How the results depend on the processing

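Each count and each of the 29 log2 fold changes was computed again under 20 alternatives. Of 580 pairs of a gene and an alternative, 541 kept direction and side of the threshold, 23 lost the call and 16 changed sign, the last all among the 4 genes that were not called. Apart from a fold limit, 22 of 25 called genes were never lost, the exceptions being Nsdhl, Sc5d and Insig1. With the mouse as a replicate block 16 genes were again called higher and 9 lower, and it changed 0 calls of the 29. A fold limit of 1 on the log2 scale, in either direction, left 1703 of all genes higher and 1731 lower, 7 synthesis genes higher and 0 lower, and 0 regulators higher and 0 lower. Synthesis genes called lower numbered 1 among genes with at least 10 counts in every library, and 1 to 2 with a mouse left out (1 without mouse 3, when Sc5d was lost). The cause was not tested.

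Signs changed in genes near 0. Acat2 was at -0.0024 with total counts. With TMM factors computed without the 10 most counted genes, Tm7sf2 was at 0.013, Hsd17b7 at 0.0016 and Insig2 at 0.0077. Among genes with at least 10 counts in every library they were at 0.096, 0.085 and 0.092, where the median of all genes was 0.116. Insig2 was at 0.0090 by DESeq2 with the replicate block and 0.0012 by limma-voom. With a mouse left out, Tm7sf2 ranged from -0.057 to 0.062, Hsd17b7 from -0.058 to 0.041 and Insig2 from -0.074 to 0.043. Without the 10 most counted genes of each library, total counts were lower in tdTom+ (difference -1650894, exact permutation p = 0.123). For all counts an exact sign-flip test that pairs libraries by mouse, a replicate block, gave p = 0.688.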
